A study of Mus musculus with 16 samples.

Results

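The comparison described here is that of Sp1-/- with Sp1+/+ hematopoietic progenitors, the last of 4 cell populations sorted along the differentiation of mouse embryonic stem (ES) cells to blood. Its members are the arrays that carry the progenitor label, 4 of 16 in the series, with 2 replicates of each genotype. Sp1+/+ cells derive from the E14 ES cell line. Sp1-/- cells derive from 1 ES cell clone in which both Sp1 alleles were mutated, so that the remaining transcript codes for a shortened Sp1 without its DNA-binding domain. No other allele or agent is named for either genotype. The label for the strain is C57BL/6 for every sample. ES cells were differentiated as embryoid bodies, and Flk1+ cells were collected with magnetic beads and grown in blast culture with VEGF and IL-6. On the second day of that culture, floating and adherent cells were pooled and progenitors were sorted as KIT+ CD41+ Tie2- cells, whereas the preceding stage, the second step of the hemogenic endothelium (HE2), was sorted as KIT+ Tie2+ CD41+. Expression was read on one-color Agilent arrays, and the values are the normalized log2 intensities that the authors deposited.

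Sp1 is a widely expressed zinc finger transcription factor that binds GC-rich motifs in the promoters of many genes, including housekeeping genes. Sp3 and Sp4 bind the same motif. Hematopoietic progenitors arise in the embryo and in culture from endothelial cells that lose endothelial genes as they gain blood genes, and they then give rise to red cells, megakaryocytes, macrophages and granulocytes. Erythroid maturation is marked by globins, heme enzymes, iron import and the proteins of the red cell membrane.

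A gene is called higher or lower below where limma gave an unadjusted p of 0.01 or less and the change was at least 2-fold. Adjusted p-values come from limma with the Benjamini-Hochberg method across the 37149 genes tested, 20122 of which have a gene symbol. A log2 fold change is always Sp1-/- minus Sp1+/+, and an error after it is its standard error. The levels given for a gene are those of replicates 1 and 2 in this order, and levels of different genes cannot be set against each other on this scale. Each genotype was hybridized on a slide of its own and comes from 1 ES cell line or clone. An effect of the slide or of the clone cannot be told apart from that of Sp1. The series record and the study's text describe the replicates as biological, whereas a supplementary legend speaks of technical replicates. The p-values and standard errors therefore measure a spread between replicates that may be technical. This spread was pooled over the 8 groups of the series and is not that of the progenitor arrays alone. In Ccnd1 the SD between progenitor replicates was 0.04 in Sp1+/+ and 0.01 in Sp1-/- cells, with a standard error of 0.54. In Slc4a1 the SDs were 0.95 and 0.13, with a standard error of 0.34. In bulk RNA, fewer cells of a type cannot be told apart from less RNA per cell.

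Between 70.6% and 72.9% of the spots on the progenitor arrays were well above background, and 0 spots were saturated. Replicates correlated at 0.997 in each genotype, against 0.982 to 0.988 between genotypes. The median SD between replicates was 0.07 in Sp1+/+ and 0.08 in Sp1-/- cells, but genes in which they lay at least 2-fold apart were more frequent in Sp1+/+ cells (221) than in Sp1-/- cells (86). Replicate 1 of Sp1+/+ had the lower red cell genes and the higher endothelial genes of the pair, so its weight is given with the results below.

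Sp1 itself was measured first. Its log2 intensity was 12.16 and 12.33 in Sp1+/+ progenitors and 9.29 and 9.41 in Sp1-/- progenitors. The difference was -2.90 ± 0.18 (adjusted p = 4.92e-06), or 7.44-fold lower, and both Sp1-/- arrays still read the probe above background. Among its relatives, Sp4 was higher in Sp1-/- cells by 1.54 ± 0.14 and Sp3 differed by -0.06 ± 0.40 (adjusted p = 0.947).

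The sort markers were checked next. Itga2b, the gene of CD41, stood at 11.92 and 11.41 in Sp1+/+ cells and at 11.66 and 11.96 in Sp1-/- cells, and the genotypes overlapped. Kit, the receptor for stem cell factor on which the cells were gated, was lower in Sp1-/- progenitors, with 13.21 and 12.89 against 11.62 and 12.02. This difference of -1.23 ± 0.34 (adjusted p = 0.0367) was no longer called without Sp1+/+ replicate 1 (-1.07) or without Sp1-/- replicate 1 (-1.03). Tek, the gene of Tie2, was above background on all 4 arrays although Tie2+ cells were gated out, with 9.62 and 8.40 against 7.62 and 8.32 (adjusted p = 0.194).

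Marker genes of other cells were fixed as short lists. All 4 erythroid markers, among them Klf1, Epor and Slc4a1, were called higher, and their summed level on the log2 scale was 13.37 and 14.39 in Sp1+/+ cells against 15.83 and 15.84 in Sp1-/- cells. Of 4 stromal markers, Col1a1, Col1a2 and Col3a1 were called lower and Pdgfra was not well above background in Sp1-/- cells. The summed stromal level was 13.88 and 13.30 in Sp1+/+ cells against 10.13 on each Sp1-/- array. Among 5 endothelial markers, Cdh5 was called lower (-2.39) and Tie1 (-1.09), Tek (-1.04), Pecam1 (-0.19) and Kdr (0.57) were not called. Their sums, in which the bright probe of Kdr weighs most, overlapped, with 14.65 and 14.18 against 14.40 and 14.55. Megakaryocyte markers were called higher in 3 of 4 (Pf4, Gp9 and Gp1bb), with sums of 13.08 and 12.91 against 13.82 and 13.42. Of 3 macrophage markers measured, Csf1r was called higher (11.56 and 12.31 against 13.45 and 13.37), whereas Itgam (-0.13) and Adgre1 (-0.17) were not called. The macrophage sums were 13.84 and 14.11 against 14.49 and 14.36. None of 4 pluripotency markers was called by limma (p of 0.329 or more), and Sox2 was not well above background on any of these arrays. In a wider list of 30 pluripotency genes, 4 were called lower and 0 higher, among them Dppa4 (-1.70 ± 0.18) and Tbx3 (-2.37 ± 0.42), which also acts in mesoderm. None of 3 mast cell markers was called by limma (p of 0.504 or more), with Fcer1a and Ms4a2 at background throughout. In a wider list of 16 mast cell and basophil genes, 3 were called higher and 0 lower, the protease Mcpt4 (1.20), Hpgds (1.13) and the granule protein Srgn (1.04). Hpgds (0.92) and Srgn (0.84) lost the call without Sp1+/+ replicate 1, and Srgn also without Sp1-/- replicate 1 (0.88). The part of these cell types in the gene results below was not tested.

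**Figure D1:**
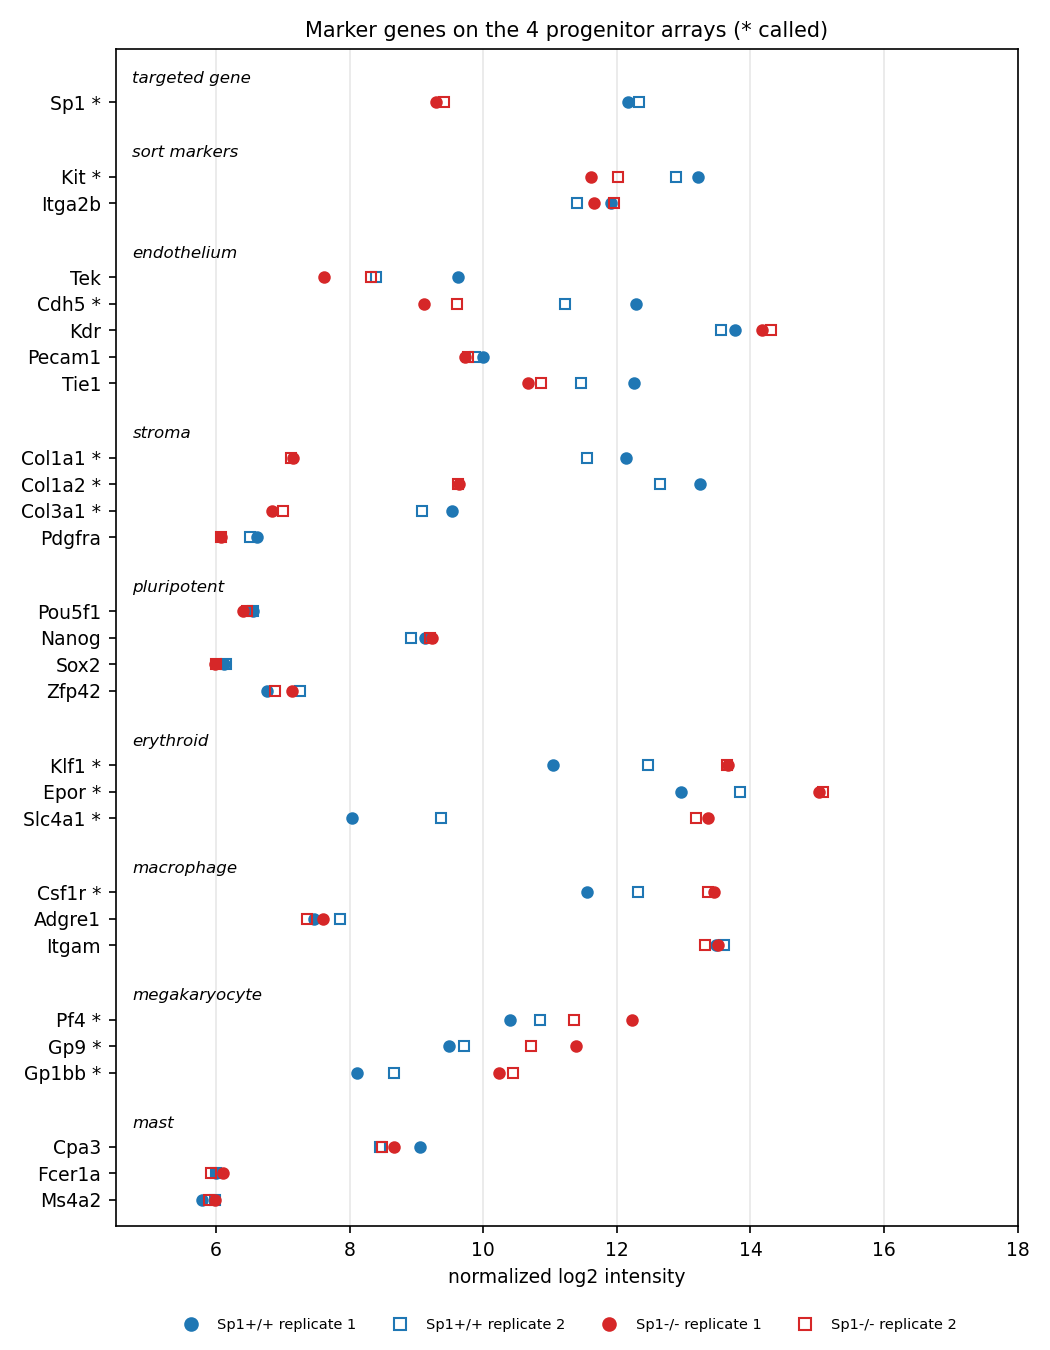
Normalized log2 intensity (horizontal axis) of Sp1, the sort markers and marker genes of other cells on the 4 progenitor arrays. Blue marks Sp1+/+, red Sp1-/-, filled circles replicate 1 and open squares replicate 2, and an asterisk marks a called gene. Sp1 lay near 12 in Sp1+/+ and near 9 in Sp1-/- cells, the erythroid genes lay higher in Sp1-/- cells and the 3 collagen genes lower.

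The promoters of 5 genes are shown because Sp1 binds GC boxes. These genes are examples and do not stand for all genes that were higher or lower. They were chosen with their values known. Hspb1 and Mgmt are among the genes with the largest falls, Kit is the sort marker that was lower, Rhox5 has the largest rise and Rhd is an erythroid gene. Each runs from 250 bases before to 50 bases after the first start that RefSeq lists on GRCm38.p6. Capitals mark the core of the GC box (GGGCGG) or a motif of the GATA factors (AGATAA), searched for on both strands. The motifs share no bases. Of 32851 promoters in the table, 35.7% hold the GC box core and 11.2% hold the GATA motif. The Hspb1 window (chr5:135887669-135887968, plus strand) holds 4 matches to the GC box core, the Mgmt window (chr7:136894336-136894635, plus strand) holds 4 and the Kit window (chr5:75574737-75575036, plus strand) holds 1. No such match is in the Rhox5 window (chrX:37754358-37754657, plus strand) or in the Rhd window (chr4:134864286-134864585, plus strand), and the Rhd window holds 1 match to the GATA motif. These letters are a description and not a binding site. A promoter was at hand for 607 of 851 called lower genes with a symbol (71.3%), against 79.4% of those called higher. Motif content was not compared between gene groups.
Hspb1: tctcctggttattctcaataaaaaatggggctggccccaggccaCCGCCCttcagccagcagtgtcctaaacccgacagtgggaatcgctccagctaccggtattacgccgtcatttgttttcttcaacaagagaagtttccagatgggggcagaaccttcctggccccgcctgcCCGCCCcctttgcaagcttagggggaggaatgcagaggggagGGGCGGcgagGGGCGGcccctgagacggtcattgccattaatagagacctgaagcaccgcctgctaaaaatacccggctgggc
Mgmt: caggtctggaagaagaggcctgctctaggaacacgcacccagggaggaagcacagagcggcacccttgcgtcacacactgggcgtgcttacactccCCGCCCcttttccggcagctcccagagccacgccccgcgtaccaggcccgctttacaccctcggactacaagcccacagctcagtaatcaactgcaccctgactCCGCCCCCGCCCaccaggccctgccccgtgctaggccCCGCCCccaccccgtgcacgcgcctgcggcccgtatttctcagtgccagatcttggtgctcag
Kit: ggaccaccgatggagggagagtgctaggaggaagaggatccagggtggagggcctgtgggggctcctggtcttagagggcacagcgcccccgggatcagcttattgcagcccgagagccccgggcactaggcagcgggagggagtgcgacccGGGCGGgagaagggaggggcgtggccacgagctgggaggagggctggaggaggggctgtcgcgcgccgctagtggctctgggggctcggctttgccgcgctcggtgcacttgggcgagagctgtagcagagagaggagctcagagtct
Rhox5: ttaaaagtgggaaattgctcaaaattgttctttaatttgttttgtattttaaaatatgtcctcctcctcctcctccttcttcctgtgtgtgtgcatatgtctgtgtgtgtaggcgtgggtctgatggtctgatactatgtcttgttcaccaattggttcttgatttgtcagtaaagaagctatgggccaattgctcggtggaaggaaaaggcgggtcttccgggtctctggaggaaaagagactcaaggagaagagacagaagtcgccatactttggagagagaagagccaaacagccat
Rhd: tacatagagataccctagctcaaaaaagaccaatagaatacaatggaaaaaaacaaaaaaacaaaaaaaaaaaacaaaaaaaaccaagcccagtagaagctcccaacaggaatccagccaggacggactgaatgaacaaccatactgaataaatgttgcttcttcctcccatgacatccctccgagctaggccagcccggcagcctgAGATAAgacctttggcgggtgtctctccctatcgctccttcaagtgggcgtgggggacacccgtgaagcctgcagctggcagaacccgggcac

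Across all genes, 1525 were called in progenitors (4.11% of those tested), with 561 higher (1.51%) and 964 lower (2.59%) in the absence of Sp1. In all 1525 the genotypes did not overlap, and neither did they in 62.5% of all genes tested. The median log2 fold change over all genes was 0.02, that of the called genes 1.33 upward and -1.47 downward. Of the called genes, 1501 also had an adjusted p of 0.05 or less. In 42 called genes no Sp1-/- array, and in 10 no Sp1+/+ array, was well above background. The number called ran from 1183 without Sp1+/+ replicate 1 to 1803 without Sp1+/+ replicate 2. Where a called gene had further probes, 519 of 604 of these changed in the same direction.

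The 10 largest rises included red cell genes and genes known from germ cells or placenta. Rhox5, an X-linked homeobox gene of the reproductive tract and placenta, rose from 10.21 and 9.73 to 15.20 and 15.39, a difference of 5.33 ± 0.17 (40.1-fold, adjusted p = 7.72e-08). Trap1a, an X-linked antigen of tumors and placenta, rose by 3.50 ± 0.15, and Tex19.1, which acts in germ cells and placenta, by 3.61 ± 0.24. Others among the 10 largest were Padi3, a peptidylarginine deiminase (3.28 ± 0.16), and Lmx1a, a homeobox gene of the nervous system (3.24 ± 0.16). Tspan33, a tetraspanin of erythroid cells, rose from 9.35 and 11.11 to 13.53 and 13.37. Acp5, an acid phosphatase of osteoclasts and macrophages, rose from 11.03 and 12.69 to 15.78 and 15.68. Slc38a5, an amino acid transporter, rose from 9.59 and 11.46 to 14.31 and 14.27. These 3 genes shared a wide gap between the Sp1+/+ replicates, and both replicates still lay below the Sp1-/- arrays. The rise of Tspan33 was 3.22, against 2.34 and 4.10 without Sp1+/+ replicate 1 and 2. The rise of Acp5 was 3.87, against 3.04 and 4.70. The rise of Slc38a5 was 3.76, against 2.83 and 4.70. Slc4a1 and Add2, the others among the 10 largest, are described with the red cell membrane.

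The largest falls joined a small heat shock protein, keratins, matrix and smooth muscle genes and a DNA repair gene. Hspb1, a small chaperone of the actin skeleton, fell from 14.57 and 14.26 to 9.02 and 8.76, a difference of -5.52 ± 0.34 (46-fold lower, adjusted p = 4.92e-06). Mgmt, which removes alkyl groups from guanine in DNA, fell from 12.17 and 11.98 to 7.82 and 7.64, a difference of -4.34 ± 0.12. Ano10, a membrane protein of the anoctamin family, differed by -4.09 ± 0.15, and Mogat2, an acyltransferase of fat synthesis, by -3.94 ± 0.24. With the mean over probes Ano10 differed by -3.14. Col1a1, Krt8, Krt19, Ccn2, Igfbp2 and Cnn1 complete the 10 largest falls and are described with their groups.

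The 58 lists of genes that were then read were written with earlier results of these data known. A list is described by the number of its members called and by its median, to be set beside a median of 0.02 over all genes. Members of the lists have gene symbols, and of the 20122 genes with a symbol 437 were called higher (2.17%) and 851 lower (4.23%).

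**Figure D2:**
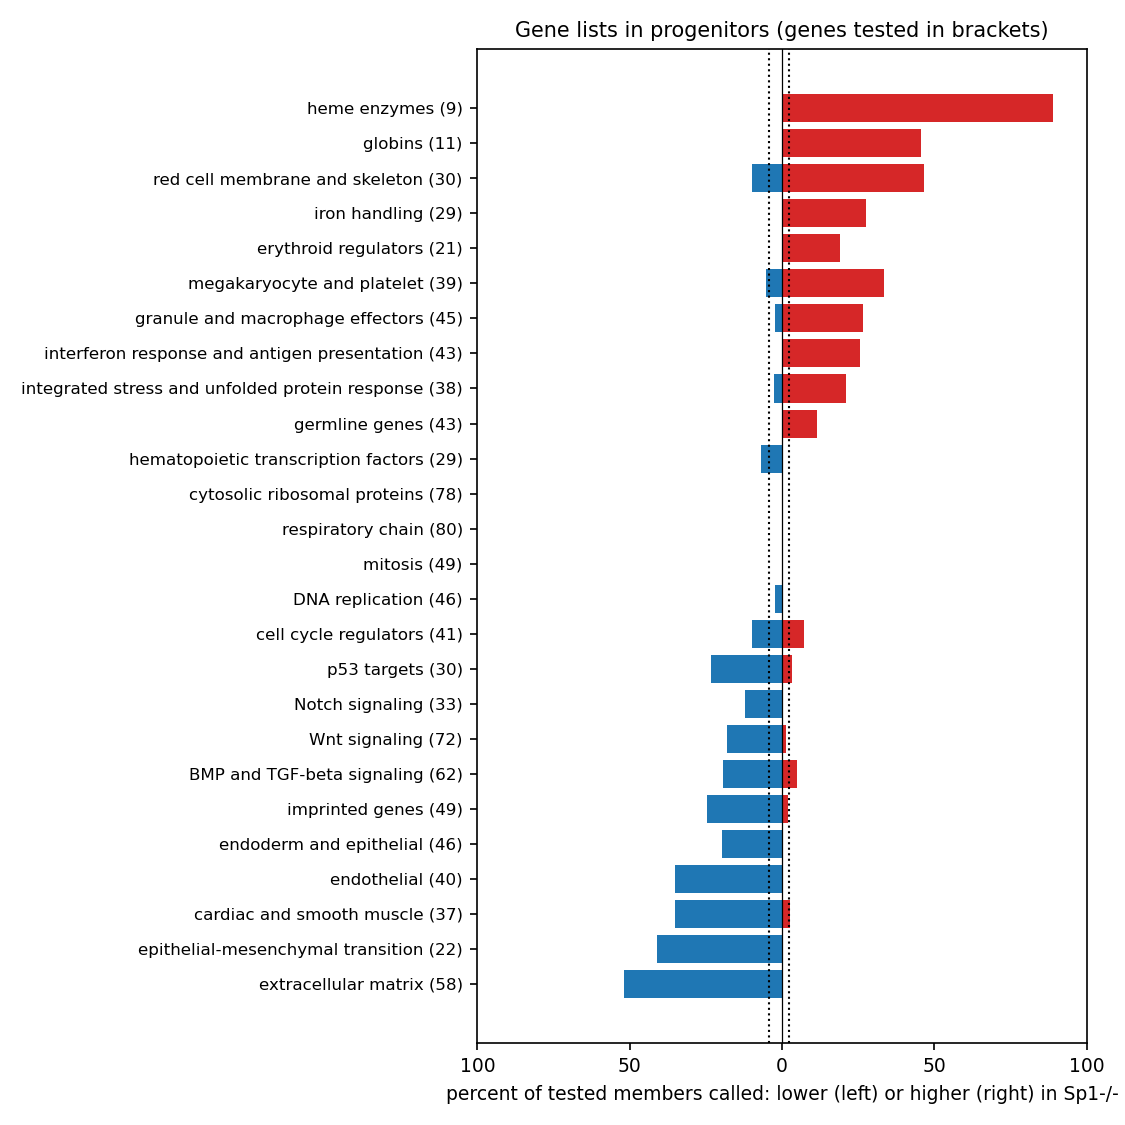
Percent of the tested members of 26 gene lists (number tested in brackets) that were called lower (blue, to the left) or higher (red, to the right) in Sp1-/- progenitors. Dotted lines mark the percent of all genes with a symbol, 4.23 lower and 2.17 higher. Heme enzymes, with 8 of 9 higher, and extracellular matrix, with 30 of 58 lower, stand at the ends, and no member was called among ribosomal, respiratory chain and mitosis genes.

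Red cell genes were among those higher in Sp1-/- progenitors. Of 30 genes of the red cell membrane and its skeleton, 14 were called higher and 3 lower, with a median of 0.84. Slc4a1, the anion exchanger of the red cell membrane, rose from 8.03 and 9.37 to 13.36 and 13.18 (4.57 ± 0.34, adjusted p = 1.42e-05). Add2, which caps actin in the membrane skeleton, rose from 7.75 and 9.21 to 12.25 and 12.32. In both genes the Sp1+/+ replicates were more than 2-fold apart and still lay below both Sp1-/- arrays. The rise of Slc4a1 was 3.90 and 5.24 without Sp1+/+ replicate 1 and 2, and that of Add2, 3.80 in full, was 3.08 and 4.53. The anchor protein Ank1 (2.47 ± 0.30) and the Rh antigen Rhd (2.83 ± 0.12) rose with them. The 3 members called lower were the complement inhibitor Cd59a (-2.51 ± 0.23), the scaffold protein Mpp1 (-1.14 ± 0.08) and the glucose transporter Slc2a1. Slc2a1 differed by -1.29, a call lost without Sp1+/+ replicate 1 (-1.10), without Sp1-/- replicate 1 (-1.24) and without Sp1-/- replicate 2 (-1.36).

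Heme synthesis genes were called higher in 8 of 9, and the ninth, Alas1, is the form of the first enzyme used outside red cells. Alas1 differed by -0.26 ± 0.11 (adjusted p = 0.178), whereas the erythroid form Alas2 rose from 10.65 and 12.23 to 14.51 and 14.37. The rise of Alas2 was 2.21 without Sp1+/+ replicate 1 and 3.79 without Sp1+/+ replicate 2. Enzymes that follow were higher, among them by 1.73 (Alad), 2.27 (Uros), 1.11 (Urod), 1.52 (Cpox), 1.95 (Ppox) and 1.22 (Fech). Without Sp1+/+ replicate 1 the number called among these 9 genes was 6, as Urod (0.94) and Fech (0.90) lost the call.

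Among 11 globin genes, 5 were called higher and the median difference was 2.39. Hbq1b, a theta globin, rose from 7.72 and 8.86 to 10.79 and 10.57 (2.39 ± 0.29), and its neighbor Hbq1a by 2.04 (1.43 and 2.63 without Sp1+/+ replicate 1 and 2). Hbb-bs and Hbb-b2, adult beta globins, each differed by 2.87, and without Sp1+/+ replicate 1 the values were 1.94 and 1.96, the latter no longer called. Without Sp1+/+ replicate 2 they were 3.79 and 3.78. Both calls were lost with the scanner's processed signal. The embryonic globins Hbb-y (14.03 and 15.95 against 18.16 and 17.78) and Hba-x (14.58 and 16.83 against 18.29 and 18.26) did not overlap between genotypes and missed the threshold. Hbb-bh1, the early beta-like globin, stood at 17.75 and 18.70 against 18.89 and 18.91. Globin paralogs of the same kind are nearly alike in sequence, and a probe may read more than 1 of them.

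Iron genes were called higher in 8 of 29 and lower in 0, with a median of 0.20, and in 4 of 29 without Sp1+/+ replicate 1. Slc25a37, the mitochondrial iron importer mitoferrin, rose from 11.78 and 12.78 to 14.81 and 14.89 (2.57 ± 0.23). Blvrb, a biliverdin reductase, rose by 1.70 ± 0.22. The transferrin receptor Tfrc stood at 11.57 and 12.34 against 13.18 and 13.30, and its call was lost without Sp1+/+ replicate 1 (0.90). The heme-degrading enzyme Hmox1 pointed the other way, at -1.24 ± 0.47, and was not called.

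Of 21 genes listed as regulators of erythroid cells, 4 were called higher and 0 lower, with a median of 0.25. One of the called genes is the Rh antigen Rhd, a membrane protein that is also counted with the red cell membrane. The ubiquitin ligase Trim10 rose from 8.17 and 9.38 to 11.78 and 11.85 (3.04, against 2.43 and 3.64 without Sp1+/+ replicate 1 and 2). The erythropoietin receptor Epor rose from 12.96 and 13.84 to 15.03 and 15.09 (1.66 ± 0.26). Klf1, the factor that drives adult globin and red cell genes, stood at 11.05 and 12.46 against 13.66 and 13.65, a difference of 1.90 ± 0.59 with an adjusted p of 0.0574. Its call was lost under several settings, among them the replicate block and the omission of Sp1+/+ replicate 1 (1.19), Sp1-/- replicate 1 or Sp1-/- replicate 2 (1.90 each), and its value was 2.60 without Sp1+/+ replicate 2. Gata1, the factor on which red cell and megakaryocyte genes depend, stood at 13.83 and 14.66 against 15.60 and 15.67 and was not called (1.39 ± 0.64).

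**Figure D3:**
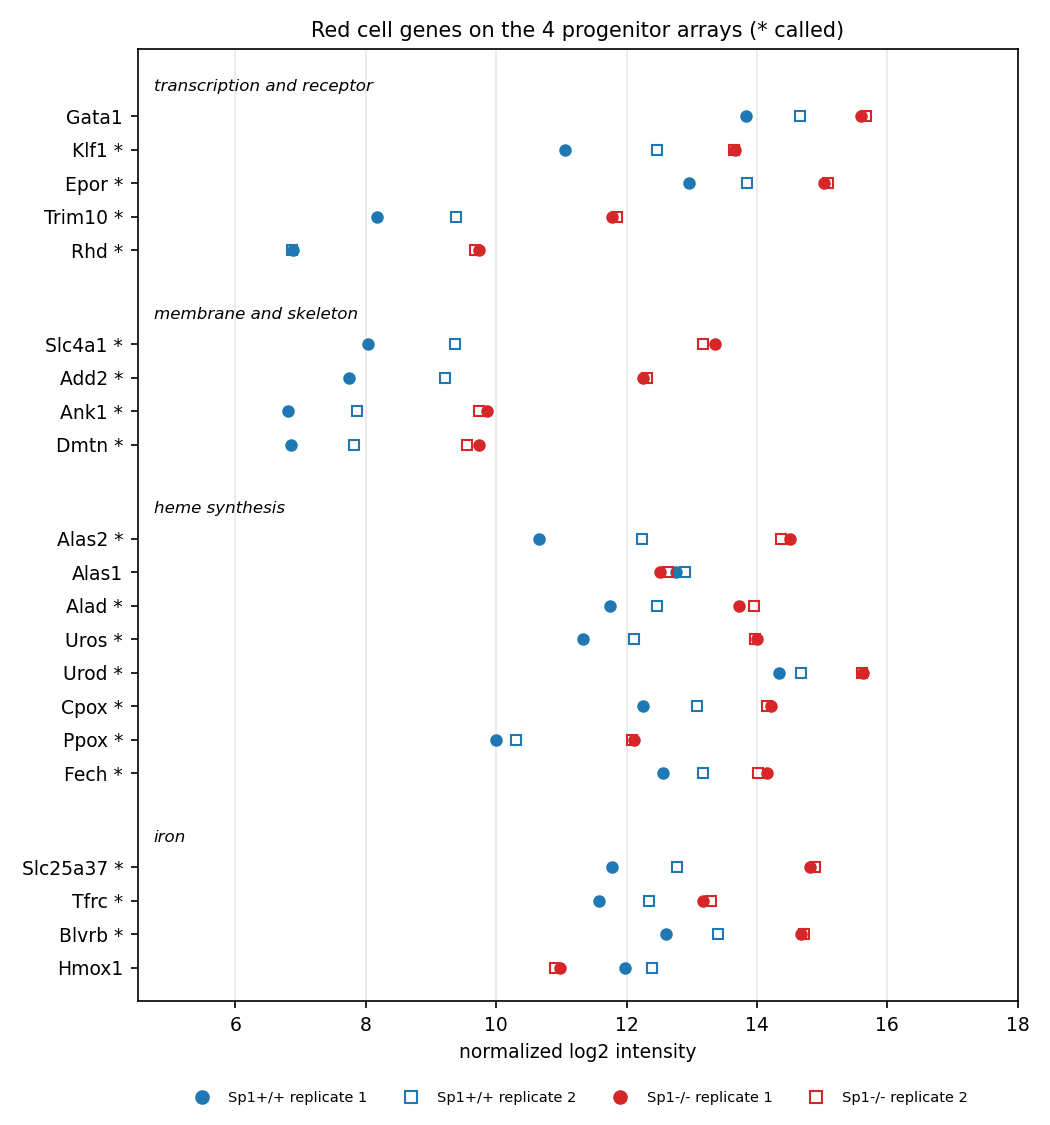
Normalized log2 intensity (horizontal axis) of genes of red cell regulation, membrane, heme synthesis and iron on the 4 progenitor arrays. Blue marks Sp1+/+, red Sp1-/-, filled circles replicate 1 and open squares replicate 2, and an asterisk marks a called gene. Among the called genes the Sp1+/+ arrays lay to the left, most often with replicate 1 below replicate 2 as in Slc4a1 (8.03 and 9.37), whereas Alas1 and Hmox1 were not higher in Sp1-/- cells.

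Among 29 hematopoietic transcription factors, 0 were called higher and 2 lower (6.9% called), with a median of -0.08. This lies near the share among all genes with a symbol, 2.17% higher and 4.23% lower. Gfi1, a repressor that acts as endothelium turns to blood and later in granulocytes, was at 10.44 and 9.93 against 8.10 and 8.39 (-1.94 ± 0.34, adjusted p = 0.0034). Cbfb, the partner of the RUNX factors, was at 14.24 and 14.04 against 12.82 and 13.10 (-1.18 ± 0.16). Runx1 itself differed by 0.38 ± 0.32, Tal1 by 0.11 ± 0.21, Lmo2 by 0.42 ± 0.25, Gata2 by 0.50 ± 0.22 and Spi1, the gene of PU.1, by -0.08 ± 0.16. Myb, a factor of immature blood cells, differed by -1.03 ± 0.50 and Fli1, a factor of endothelium and megakaryocytes, by -0.77 ± 0.27. None of these 7 passed the threshold, and 13 of the 29 genes had an unadjusted limma p under 0.05.

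Platelet genes were called higher in 13 of 39 and lower in 2, with a median of 0.15. Treml1, a receptor of platelet granules, rose from 9.79 and 10.11 to 12.44 and 11.94 (2.24 ± 0.25). The platelet beta-tubulin Tubb1 (2.17 ± 0.23) and the clotting protein Vwf (2.13 ± 0.26) were also higher. Von Willebrand receptor subunits moved with them, Gp1bb by 1.96 ± 0.17, Gp5 by 1.86 ± 0.16 and Gp9 by 1.45 ± 0.21. With the mean over probes the value of Gp1bb was 1.01. Pf4 differed by 1.17, a call that was lost under most alternatives, such as without Sp1-/- replicate 1 (0.74), Sp1+/+ replicate 1 (0.94) or Sp1+/+ replicate 2 (1.39). Itga2b, which is present before platelets form, was not called. Thbs1 (-1.46 ± 0.28) and Serpine2 (-1.38 ± 0.23), secreted proteins made by many adherent cells as well, were lower.

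Genes of granulocyte and macrophage function were called higher in 12 of 45 and lower in 1, with a median of 0.40. The protease Ctss rose from 6.46 and 6.89 to 9.66 and 9.20 (2.76 ± 0.20). Ncf4, a subunit of the phagocyte oxidase, rose by 2.16 ± 0.30, while another subunit, Cyba, fell by 1.17 on the log2 scale. The chemokine receptor Cx3cr1 rose from 8.76 and 10.08 to 11.82 and 11.81, which was 2.40 in full and 1.73 and 3.05 without Sp1+/+ replicate 1 and 2. Csf1r, the receptor for the growth factor Csf1, differed by 1.47, a call lost without Sp1+/+ replicate 1 (1.10) or Sp1-/- replicate 1 (1.43). Csf1 itself was lower, with 10.90 and 10.76 against 8.76 and 8.58 (-2.16 ± 0.19).

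Myeloid transcription factors went in both directions, with 4 of 33 higher and 5 lower. Ddit3 (2.10 ± 0.27), Batf (1.42 ± 0.10), Irf5 (1.23 ± 0.21) and Irf8 were higher, the last with 9.23 and 10.19 against 10.98 and 10.92. Irf8, a factor of monocytes and dendritic cells, was no longer called without Sp1+/+ replicate 1 (0.76), and neither was Irf5 (0.90). Gfi1, Cebpd (-1.31 ± 0.19), Cebpe (-1.28 ± 0.14), Bach2 (-1.20 ± 0.14) and Rara (-1.19 ± 0.20) were lower, and Bach2 lost the call with the mean over probes (-0.79). Among these, Cebpe and Gfi1 are needed for granulocytes.

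Interferon-induced and antigen presentation genes were called higher in 11 of 43 and lower in 0, with a median of 0.36. Oasl1 and Oasl2, members of the oligoadenylate synthetase family, rose by 2.75 ± 0.22 and 2.01 ± 0.24. Oasl1 stood at 7.03 and 7.85 in Sp1+/+ cells and at 10.31 and 10.07 in Sp1-/- cells. Ifit3 rose by 2.03 ± 0.30, although its call was lost with the scanner's processed signal, and the ubiquitin-like Isg15 rose by 1.31 ± 0.17.

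By the integrated stress response cells adapt to amino acid or heme shortage through the factor Atf4. In a list that joins it with the unfolded protein response, 8 of 38 genes were called higher and 1 lower, with a median of 0.03. Atf4 itself was higher, with 15.07 and 15.14 against 16.37 and 16.35 (1.26 ± 0.12). Trib3, a pseudokinase induced by Atf4, rose from 9.74 and 10.26 to 12.87 and 12.95 (2.91 ± 0.16). The arginine transporter Slc7a3 (2.37 ± 0.21), the glutathione-degrading Chac1 (2.32 ± 0.21) and the phosphatase subunit Ppp1r15a (1.11 ± 0.18) were higher too, the last of them no longer without Sp1-/- replicate 1 (0.95). So was Eif2ak1, the heme-regulated kinase upstream of Atf4, with 9.70 and 9.93 against 10.96 and 11.04. The mTOR inhibitor Ddit4 was the member called lower (-1.48 ± 0.22), and Hspa5, the chaperone of the endoplasmic reticulum, differed by -0.06 ± 0.17. Amino acid synthesis moved in both directions. Mthfd2 (1.62 ± 0.15) and asparagine synthetase Asns (1.48 ± 0.19) were higher, whereas Ass1 (-1.66 ± 0.16) and Gldc (-1.42 ± 0.12) were lower. None of the 20 aminoacyl-tRNA synthetases measured was called by limma, with 9 at an unadjusted p under 0.05, and their median was 0.20.

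Extracellular matrix genes were lower as a group. Of 58, 30 were called lower and 0 higher, with a median of -1.14. Col1a1, a chain of fibrillar collagen, stood at 12.14 and 11.55 in Sp1+/+ cells and at 7.16 and 7.13 in Sp1-/- cells (-4.70 ± 0.84, adjusted p = 0.00354). Nid1, a linker of basement membranes, stood at 11.98 and 11.85 against 7.98 and 8.36, although the difference of Nid1, -3.74, was -2.05 with the mean over probes. Col1a2 stood at 13.25 and 12.65 against 9.64 and 9.62. The abundant matrix protein Sparc fell by 2.68 on the log2 scale and the protease inhibitor Timp1 by 3.04. These genes are made mainly by adherent cells, and the summed level of the 58 genes was 18.25 and 17.80 in Sp1+/+ cells against 15.85 and 16.18 in Sp1-/- cells. Between 23 and 30 members were called with any 1 progenitor array left out.

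Smooth muscle and heart genes were lower in 13 of 37 and higher in 1, with a median of -0.81. Cnn1, which binds actin in smooth muscle, stood at 12.09 and 11.89 against 8.07 and 7.99 (-3.96 ± 0.47). Acta2, smooth muscle actin, stood at 16.81 and 16.24 against 12.85 and 12.77, and Tagln, its binding partner, at 15.94 and 15.65 against 12.23 and 12.03. The tropomyosin Tpm2 (-3.73 ± 0.26) and Hand1, a transcription factor of heart and extraembryonic mesoderm (-3.77 ± 0.49), fell as well. Tnni1, the slow skeletal troponin I, was the member called higher, with 10.03 and 10.02 against 12.49 and 12.54.

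Endothelial genes were called lower in 14 of 40 and higher in 0, with a median of -1.06, and 38 of 40 differences were negative. Cdh5, the cadherin of endothelial junctions, stood at 12.29 and 11.23 in Sp1+/+ cells and at 9.12 and 9.61 in Sp1-/- cells (-2.39 ± 0.43). The transcription factor Sox18 (-2.90 ± 0.39) and the junction protein Esam (-2.66 ± 0.40) were also lower. Ramp2, a subunit of the adrenomedullin receptor, was at 14.13 and 10.86 in Sp1+/+ cells against 8.86 and 9.41. The fall of Ramp2 thus went from -3.36 to -1.73 without Sp1+/+ replicate 1 and to -4.99 without replicate 2. The call was lost without Sp1+/+ replicate 1 and without Sp1-/- replicate 1 (-3.09). Without Sp1+/+ replicate 1 the number of endothelial genes called lower was 8, and without Sp1+/+ replicate 2 it was 21. Other defining genes of the endothelium were not called, with 13.77 and 13.56 against 14.17 and 14.30 for Kdr and 10.00 and 9.88 against 9.73 and 9.77 for Pecam1. The difference of Kdr, 0.57, lay between -0.28 and 0.60 over the alternatives that left out no progenitor array, so its sign depended on the processing.

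Keratins and other epithelial or endoderm genes were lower in 9 of 46 and higher in 0, with a median of -0.17. Krt8 stood at 13.02 and 12.59 against 8.26 and 8.55 (-4.40 ± 0.69). Its partner Krt18 stood at 15.67 and 15.34 against 12.06 and 12.02, and Krt19 at 12.51 and 11.94 against 7.69 and 7.62. Without Sp1+/+ replicate 1, the list had 4 called genes, without Sp1-/- replicate 2 it had 5, and without Sp1-/- replicate 1 it had 6.

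Secreted signals and their receptors were lower more often than higher. In BMP and TGF-beta signaling, 12 of 62 genes were called lower and 3 higher. Bmp4, a ligand that patterns mesoderm, stood at 13.15 and 12.71 against 9.34 and 9.58 (-3.47 ± 0.25), although the other probe of Bmp4 pointed the opposite way and the mean over probes gave -1.65. Tgfb2, another ligand of this superfamily, stood at 10.86 and 10.84 against 7.48 and 7.40. The binding protein Ltbp2 (2.78 ± 0.28) and Tgfbi (1.30 ± 0.27) were higher. So was the BMP antagonist Noggin, Nog, at 1.66, a call lost without Sp1+/+ replicate 1 (1.26).

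In Wnt signaling 13 of 72 genes were called lower and 1 higher, and without Sp1+/+ replicate 1 the number called lower was 8. The receptor Fzd2 stood at 11.29 and 10.52 against 7.12 and 7.35 (-3.67 ± 0.38). The ligand Wnt4 differed by -2.99 ± 0.49 and the nuclear effector Tcf7, also known from T cells, by -2.02 ± 0.11. With the mean over probes, Fzd2 differed by -1.90 and Tcf7 by -1.17. Dkk3, a member of the Dickkopf family, was at least 5.41-fold lower, since no Sp1-/- array was well above background. The Wnt antagonist Sfrp5 was the member called higher (1.45 ± 0.29).

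Growth factor genes, grouped with their receptor tyrosine kinases and feedback regulators, were lower in 12 of 65 and higher in 0, with a median of -0.30. The insulin-like growth factor binding protein Igfbp2 stood at 13.45 and 12.87 against 9.09 and 8.96 (-4.13 ± 0.78). Gas6, the ligand of the Axl, Tyro3 and Mertk receptors, stood at 13.60 and 12.69 against 9.37 and 9.56 (-3.68 ± 0.33). The receptor Egfr differed by -2.50 ± 0.24, and by -1.08 with the mean over probes. Notch genes were lower in 4 of 33, with Hey1, a direct target of the pathway, at -1.31 ± 0.20 and the ligand Jag1 at -1.16 ± 0.24. Of 36 chemokine genes and receptors, 4 were higher and 5 lower. Cxcl12, which holds blood progenitors in their niche, stood at 11.43 and 10.05 against 7.12 and 7.29, which was -3.53 in full and -2.85 and -4.22 without Sp1+/+ replicate 1 and 2. With the mean over probes Cxcl12 differed by -2.61. The number called lower in this list was 2 without Sp1+/+ replicate 1, 3 without Sp1+/+ replicate 2 and 3 without Sp1-/- replicate 2. Ccn2, a matrix-bound growth factor modulator, stood at 12.63 and 12.18 against 7.86 and 8.34 (-4.31 ± 0.31).

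**Figure D4:**
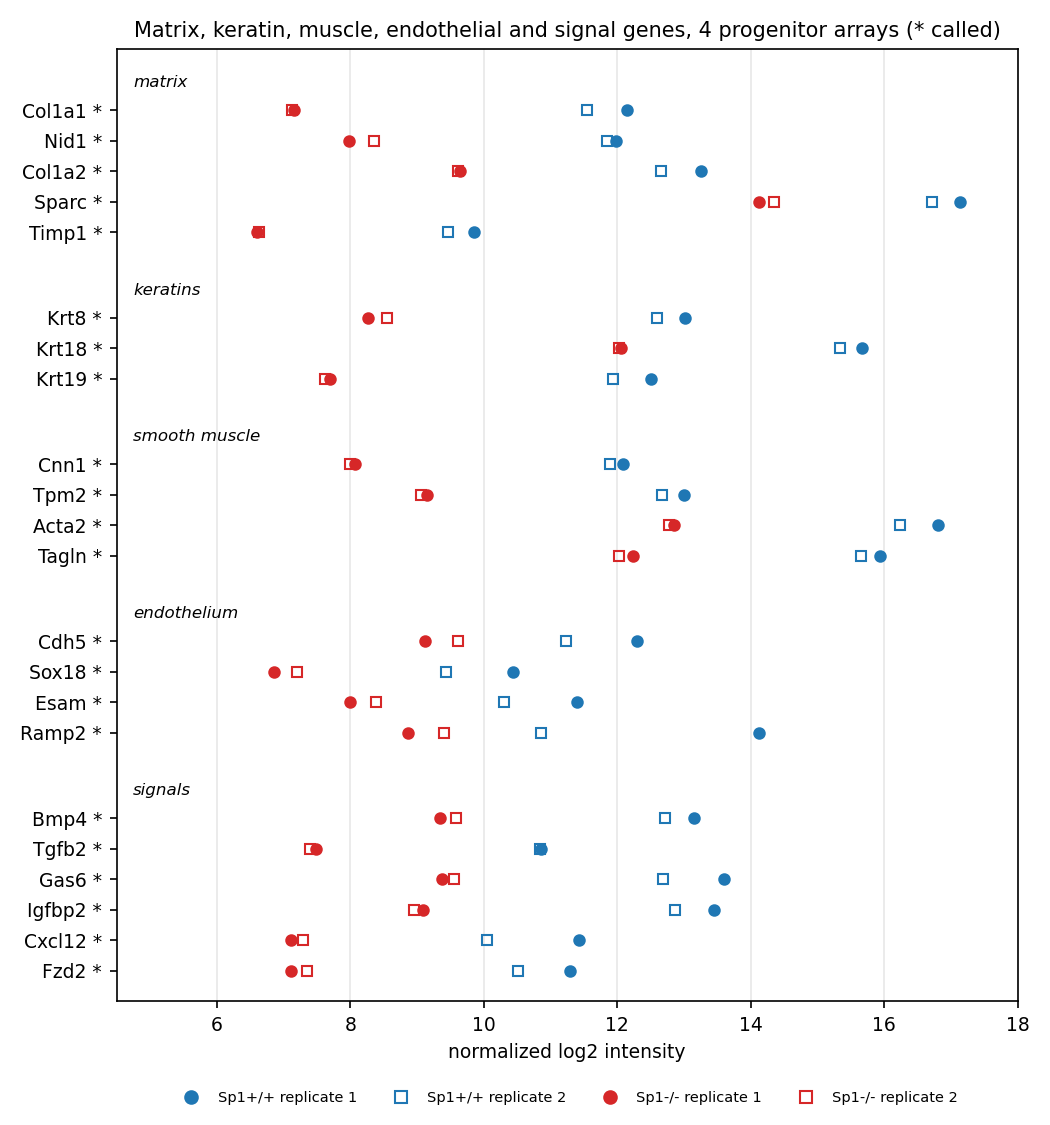
Normalized log2 intensity (horizontal axis) of 22 genes of matrix, keratins, smooth muscle, endothelium and secreted signals on the 4 progenitor arrays. Blue marks Sp1+/+, red Sp1-/-, filled circles replicate 1 and open squares replicate 2, and an asterisk marks a called gene. In each gene both Sp1+/+ arrays lay above both Sp1-/- arrays, and Ramp2 had the widest gap between the Sp1+/+ replicates (14.13 and 10.86).

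Imprinted genes were called lower in 12 of 49 and higher in 1, with a median of -0.38. H19, a noncoding RNA made from the maternal allele, stood at 12.58 and 11.88 against 8.27 and 8.66 (-3.77 ± 0.38), and the mean over probes gave -3.13. Its neighbor Igf2, a growth factor made from the paternal allele, differed by -2.37 ± 0.38. Another pair from 1 imprinted region, the maternal Meg3 (-2.83 ± 0.33) and the paternal Dlk1, was lower as well, and Meg3 differed by -1.55 with the mean over probes. Dlk1 differed by -3.13, a call lost without Sp1+/+ replicate 1 (-2.54), Sp1-/- replicate 1 (-3.12) or Sp1-/- replicate 2 (-3.15), and it was -3.73 without Sp1+/+ replicate 2. Mest (-2.50 ± 0.46) and Nnat (-3.09 ± 0.61) are expressed from the paternal allele. Genes of both parental origins were thus among those lower.

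Germline genes were called higher in 5 of 43 and lower in 0, with a median of 0.02, and 11 of the 43 were above background on no progenitor array. Besides Tex19.1, these included Stag3, a cohesin subunit of meiosis (1.94 ± 0.12). Tex11, an X-linked gene of meiosis, was at least 4.3-fold higher by its brightest probe, since no Sp1+/+ array was well above background. Its log2 difference was 2.16, and between 1.26 and 6.42 over the alternatives that left out no progenitor array. Genes of DNA methylation were higher in 2 of 25 and lower in 3. The lower ones were the methyltransferases Dnmt3b and Dnmt3a, and Mgmt, a DNA repair gene that the list also holds. Dnmt3b stood at 14.90 and 14.68 against 13.56 and 13.72, a call lost with the mean over probes. Dnmt3a stood at 10.99 and 10.85 against 9.83 and 9.89, a call lost without Sp1+/+ replicate 1 (-0.99).

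p53 target genes were called lower in 7 of 30 and higher in 1, with a median of -0.26. The death receptor Fas stood at 8.79 and 8.85 against 6.49 and 6.86 (-2.15 ± 0.18). Zmat3 (-1.54 ± 0.24) and Ccng1 (-1.44 ± 0.29) were lower, Gadd45a was higher (1.21 ± 0.24), and the cell cycle inhibitor Cdkn1a differed by -0.92 ± 0.32 without a call. Of 33 apoptosis regulators, 3 were called lower and 1 higher, with a median of -0.01. The BCL2 family member Bok fell from 9.08 and 9.12 to 6.95 and 7.28 (-1.98 ± 0.16) and the kinase Ripk1 by 1.89 on the log2 scale. Bcl2a1d was the member called higher (1.30 ± 0.27), a call lost without Sp1+/+ replicate 1 (0.88) and with the processed signal. Of 31 heat shock genes, 4 were lower and 2 higher. The 4 were Hspb1, Cryab (-2.84 ± 0.28), Hspb2 (-2.30 ± 0.25) and the cochaperone Bag3, and the first 3 of these are small heat shock proteins of muscle and adherent cells.

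Lists of proliferation and metabolism differed in how many members were called. No gene was called among 49 of mitosis, 78 of the cytosolic ribosome, 78 of the mitochondrial ribosome and 80 of the respiratory chain. The medians of these lists lay between -0.03 and 0.07. By limma, an unadjusted p under 0.05 was reached by 18, 7, 21 and 17 of them in this order, and Student's t-test called 0 as well. The smallest p in each list belonged to Spc24 (0.60), Rpl27 (-0.41), Mrps31 (-0.49) and Ndufa13 (-0.58). DNA replication genes were lower in 1 of 46, thymidine kinase Tk1, at -1.01 ± 0.16, a call lost without Sp1+/+ replicate 2 (-0.92) or Sp1-/- replicate 2 (-0.95). Of 41 cell cycle regulators, 3 were higher and 4 lower. The phosphatase Cdc25b, which activates mitotic kinases, rose from 11.26 and 11.78 to 13.48 and 13.37 (1.91 ± 0.18), and the retinoblastoma gene Rb1 by 1.46 ± 0.15. Ccnd1, cyclin D1, stood at 11.16 and 11.10 against 8.94 and 8.96, yet its standard error was 0.54 and the call was lost without Sp1+/+ replicate 1 (-2.15), Sp1-/- replicate 1 (-2.17) or Sp1-/- replicate 2 (-2.19).

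Of 30 glycolysis genes, 2 were called higher and 3 lower, with a median of -0.05. Pfkfb4, a regulator of the pathway, rose from 11.05 and 11.82 to 13.23 and 13.14 (1.75 ± 0.21, and 1.14 with the mean over probes), and hexokinase Hk1 rose by 1.37 ± 0.27. Ldhb, a lactate dehydrogenase subunit, stood at 10.91 and 10.92 against 9.37 and 9.40, and the enolase Eno3 differed by -1.11 ± 0.11. Of 45 genes of fatty acid metabolism, 1 was higher and 4 were lower, with a median of -0.12. Dgat2, which completes fat synthesis, rose by 1.91 ± 0.11. Acadl, a dehydrogenase of fatty acid breakdown, differed by -1.31 ± 0.20, and Cpt1a, which brings fatty acids into mitochondria, by -1.55 ± 0.21, a call lost with the mean over probes (-0.82).

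Whether these differences were also those of the preceding stage was tested as the difference in progenitors minus that in HE2, within the same model. HE2 arrays of each genotype lay on the same slide as the progenitor arrays of that genotype. At the same thresholds 722 genes were called in HE2, and 441 genes were called in both stages in the same direction, 28.9% of the progenitor calls and 61.1% of the HE2 calls. The difference between the stages itself was called in 592 genes (1.59% of those tested), of which 222 remained at an adjusted p of 0.05.

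Of the genes with a symbol, 2.45% were called as different between the stages. Among red cell lists this was so in 6 of 9 heme enzymes and 11 of 30 membrane genes, with medians in HE2 of 0.23 and 0.17. It was so in 2 of 11 globins, 2 of 21 genes listed as erythroid regulators (Rhd among them) and 4 of 29 iron genes. Their medians in HE2 were 1.09, 0.17 and 0.10. Klf1 differed by 1.90 in progenitors and 1.64 in HE2 (adjusted p = 0.953 for the difference). Slc4a1 differed by 4.57 in progenitors and 1.29 in HE2, and the difference between these was 3.29 ± 0.48 (adjusted p = 0.0143). For Rhd the values were 2.83 and 0.46, for Slc25a37 2.57 and 0.29, and for Blvrb 1.70 and -0.60, with adjusted p-values for the difference of 0.00115, 0.0135 and 0.0113.

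The difference between the stages was also called in 20 of 58 matrix genes and 13 of 37 muscle genes. Of these, the collagen gene Col5a1 (0.06 in progenitors and 1.62 in HE2) and the myosin gene Myl4 (-0.41 and 1.17) lay further from 0 in HE2. The fall of Ccn2 was -4.31 in progenitors and -0.84 in HE2 (difference -3.47 ± 0.44, adjusted p = 0.00909). That of Hspb1 was -5.52 and -2.22, and that of Bmp4 was -3.47 and -0.92, with adjusted p-values for the difference of 0.0137 and 0.0134. Col1a1 (-4.70 and -0.35) and Krt8 (-4.40 and -0.10) differed as widely, but with adjusted p-values of 0.153 and 0.0848.

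Other differences were shared by both stages or larger in HE2. Rhox5 rose by 5.33 and 4.68, Tex19.1 by 3.61 and 3.04, Trib3 by 2.91 and 2.19 and Atf4 by 1.26 and 1.40, and none of these 4 was called as different between the stages. No gene of the integrated stress and unfolded protein response list, the germline list or the p53 list was called as different. Mgmt differed by -4.34 in progenitors and by -5.55 in HE2, a difference of 1.21 ± 0.17 (adjusted p = 0.0137).

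**Figure D5:**
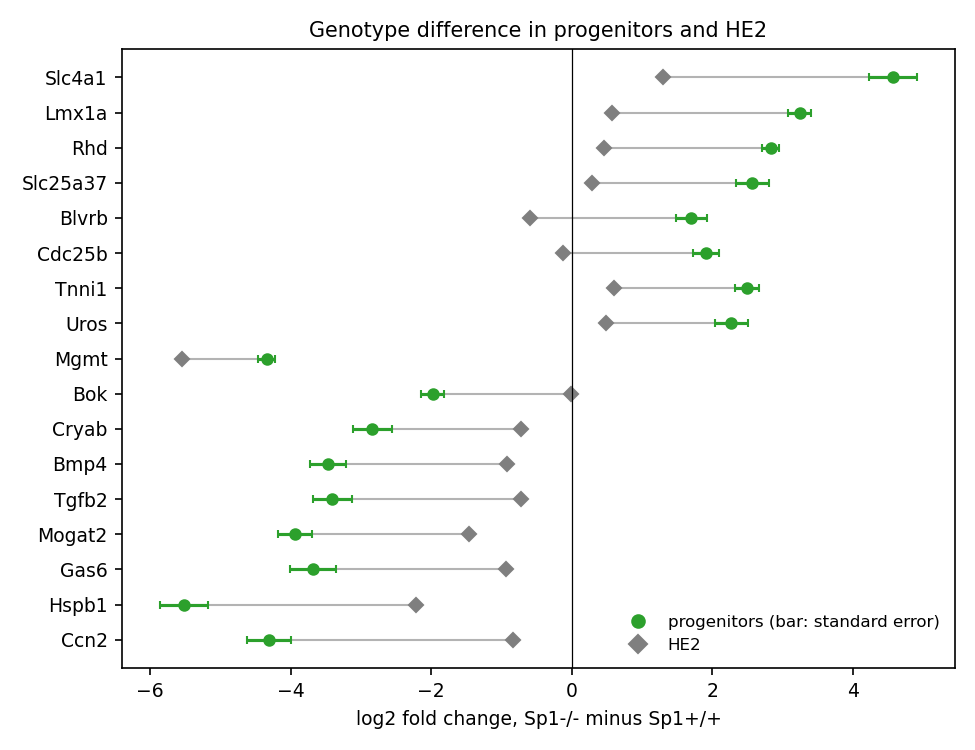
Log2 fold change, Sp1-/- minus Sp1+/+, of 17 genes in progenitors (green circles, with the standard error as bar) and in HE2 (grey diamonds). The genes shown were chosen among those in which the stages were called as different. All but Mgmt lay further from 0 in progenitors, such as Ccn2 at -4.31 against -0.84 and Rhd at 2.83 against 0.46.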

How the data were processed

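RNA of 16 samples was hybridized to one-color Agilent mouse arrays, and 4 samples, progenitors of each genotype in 2 replicates, are described here. The authors deposited normalized log2 values, and the scanner files, which hold the median intensity and a processed signal of each spot (Agilent Feature Extraction 10.7.3.1 per the file headers, probes annotated on mm9). The deposited log2 values were matched to within 0.005 by limma's normexp correction with an offset of 50 and quantile normalization, whereas the offset stated in the study's methods is 16 (difference up to 1.63). An offset of 50 draws dim signals together and so understates changes of dim genes.

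Control spots were left out, between 167 and 298 spots per array with an outlier flag were treated as missing, and spots of 1 probe were averaged. Of 37932 target names, 20869 matched a RefSeq accession and 12 a symbol, and the rest kept their name. A gene was read from its brightest probe over the 16 arrays with a log2 value of 6 or more on at least 1 array, which nearly all probes reach on the deposited scale. A limma model (R 4.3.3, limma 3.58.1) with 8 groups and 8 residual degrees of freedom gave each contrast, and the script was tested on simulated data. Where every array of a group read a gene at background, the fold is a bound against the lowest signal of probes well above background, or the gene's own where higher.

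The members, the gene lists and the tests were chosen with earlier results of these data known. The genes named are Sp1, the sort genes, the 10 largest called rises and falls without overlap between genotypes, and up to 3 called rises and 3 called falls of each list, or else the member with the smallest p. Other genes were named with their values known, and some genes are not reported here. Alternatives were another offset, the processed signal scaled to its 75th percentile, other filters and the mean over probes. Further ones were only the arrays compared, a replicate block, adjusted thresholds, Student's t-test on the progenitor arrays and omission of each array. The study's methods name limma for the arrays, and Student's t-test for comparing samples of different genotype. The number of arrays limits the precision.

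Replicate numbers follow the row on the slide. Deviations of same-numbered progenitor arrays correlated at -0.163 and those of HE2 arrays at -0.0603 over genes with a mean log2 value of 8 or more (HE1 0.226, Flk1+ 0.18). Not every pair was above 0.1, so the numbers were not used to pair samples. Promoter sequences are those of RefSeq on GRCm38.p6.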

Additional observations from a re-analysis of the deposited data

Results flagged for a closer look

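A few named genes had a genotype difference that differed between progenitors and HE2 by at least 2-fold with an adjusted p of 0.01 or less in limma's interaction term. The difference, progenitors minus HE2 on the log2 scale, was -3.47 for Ccn2 and -3.38 for Tagln, both lower in Sp1-/- progenitors. It was -1.97 for Bok, whose difference in HE2 was -0.01. Among genes that were higher in Sp1-/- progenitors it was 2.67 for Lmx1a, 2.36 for Rhd, 2.02 for Cdc25b and 1.89 for Tnni1. With 2 samples in each group, no sample was tested for standing apart from its group.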

How the results depend on the processing

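The 1525 genes called in progenitors became 2500 with the scanner's processed signal, 567 with Student's t-test and 2 with that t-test after adjustment. Limma, not this t-test, is what the study's methods name for the arrays. The 592 genes that differed between progenitors and HE2 became 900 with the processed signal, 222 at an adjusted p of 0.05 and 39 at an adjusted p of 0.01. The cause was not tested, except that stricter thresholds keep fewer genes by construction. Leaving out 1 array at a time gave 1183 to 1803 genes for the first count and 425 to 758 for the second, where the lone sample left in a group is assumed to vary like the other groups. The lowest of each came without Sp1+/+ progenitor replicate 1 and the highest without Sp1+/+ progenitor replicate 2. With an offset of 16, 1920 genes were called, of which 1518 were called with the deposited values. The processed signal moved the median of all genes to 0.10.

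The replicate block gave 1539 and 631 genes. Among the named genes it ended 1 call, that of Klf1. A block with the numbers of the Sp1-/- progenitors exchanged, chosen after seeing the data, gave 1534 and 628.

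Of the 220 named genes called, 60 had a change over 1.5 times larger with the processed signal and 16 with an offset of 16, whereas 17 had one over 1.5 times smaller with the mean over probes. None of these 220 genes changed sign under any alternative. Without Sp1+/+ replicate 1, 39 lost their call, against 6 without Sp1+/+ replicate 2, 17 without Sp1-/- replicate 1 and 15 without Sp1-/- replicate 2. Of dim genes an array gives only a bound, and 6881 of the genes tested were above background on no progenitor array.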
